A study of Mus musculus with 4 samples.

Results

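A set of 10 smooth muscle and myofibroblast genes was followed in cultured pancreatic fibroblasts of KPC mice and of wild type mice: Acta2, Tagln, Myl9, Cnn1, Cnn2, Tpm1, Tpm2, Actg2, Lmod1 and Myh11. The genes were taken by symbol from the deposited tables, where each of the 10 had 1 row among 38921 gene rows. The study held 2 KPC libraries and 2 wild type (WT) libraries, described in the labels as biological replicates from mice of mixed strain. KPC is the usual name of a pancreatic cancer model. In it, Cre expressed from the Pdx1 promoter, in pancreatic epithelium, activates engineered alleles, one of them a mutant Trp53. The labels state only the name, give no age or animal number, and identify no single cultures. The cells of all 4 libraries were obtained by gravity separation and grown in medium with serum, so every value below is that of cultured cells. The question was how far KPC and wild type fibroblasts differ in the contractile program, and how far the libraries of 1 group differ among themselves.

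Contractile cells pull on their surroundings with actin filaments and myosin motors. Smooth muscle cells carry their own isoforms of these proteins, and fibroblasts that switch on part of the same set in wounds, fibrosis and tumour stroma are called myofibroblasts. Many of these genes are controlled by serum response factor (SRF), which binds a promoter element named the CArG box together with myocardin or the myocardin-related factors, and which is activated when actin is polymerised. Acta2, the smooth muscle alpha actin gene, is the usual myofibroblast marker in pancreatic stroma. Serum and stiff plastic are both known to raise this set in cultured fibroblasts and stellate cells.

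Promoter windows were searched for the letters of the SRF element close to each start. Such letters do not show whether SRF binds there, and their absence does not show that it does not. RefSeq windows (build GRCm38.p6, 250 bases before to 50 bases after the start) matched 7 of the 10 members. No window was available for Tagln, Actg2 and Myh11. The CArG box in its strict form (CC, 6 bases of A or T, GG) lay in 2 of these 7 windows, those of Myl9 and Cnn2. It lay in 1.63% of 32851 windows of all genes, and the pattern reads the same on both strands. A near match, with 1 G or C among the 6 central bases, lay in the windows of Acta2 and Myl9 and in 8.50% of all windows. Either form lay in 3 of the 7 windows and in 9.98% of all windows. The M-CAT core CATTCC, searched on both strands, lay in the windows of Acta2, Tpm1 and Lmod1 and in 14.7% of all windows. The windows of Cnn1 and Tpm2 held neither, which says only that these letters are absent from the 300 bases. The 3 windows with a CArG box or a near match follow, 5′ to 3′ on the gene's strand, with those matches in capitals: Acta2 at chr19:34255324-34255623 (minus strand), Myl9 at chr2:156775214-156775513 (plus strand) and Cnn2 at chr10:79988350-79988649 (plus strand).
Acta2: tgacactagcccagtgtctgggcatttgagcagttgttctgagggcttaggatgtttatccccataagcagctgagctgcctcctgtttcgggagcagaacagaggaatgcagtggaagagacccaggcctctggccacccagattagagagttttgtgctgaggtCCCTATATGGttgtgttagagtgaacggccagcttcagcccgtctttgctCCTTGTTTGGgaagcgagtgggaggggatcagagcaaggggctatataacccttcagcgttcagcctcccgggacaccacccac
Myl9: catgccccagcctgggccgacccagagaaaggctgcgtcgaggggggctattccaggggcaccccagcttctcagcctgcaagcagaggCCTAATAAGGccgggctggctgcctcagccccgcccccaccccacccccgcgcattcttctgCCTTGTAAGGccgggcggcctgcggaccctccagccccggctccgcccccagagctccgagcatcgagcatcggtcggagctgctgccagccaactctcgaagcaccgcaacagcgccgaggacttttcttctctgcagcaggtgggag
Cnn2: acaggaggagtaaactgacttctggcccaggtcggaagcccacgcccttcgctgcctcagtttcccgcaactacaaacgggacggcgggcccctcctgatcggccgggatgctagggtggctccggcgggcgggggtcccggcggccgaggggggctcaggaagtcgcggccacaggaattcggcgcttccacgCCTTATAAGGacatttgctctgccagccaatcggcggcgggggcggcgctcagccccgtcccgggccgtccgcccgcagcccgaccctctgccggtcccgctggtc
The Acta2 near matches CCCTATATGG and CCTTGTTTGG begin 84 and 34 bases before the start. In Myl9 the CArG box CCTAATAAGG begins 161 bases before the start and the near match CCTTGTAAGG begins 99 bases before it. The single match of Cnn2, CCTTATAAGG, begins 56 bases before the start.

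**Figure D1:**
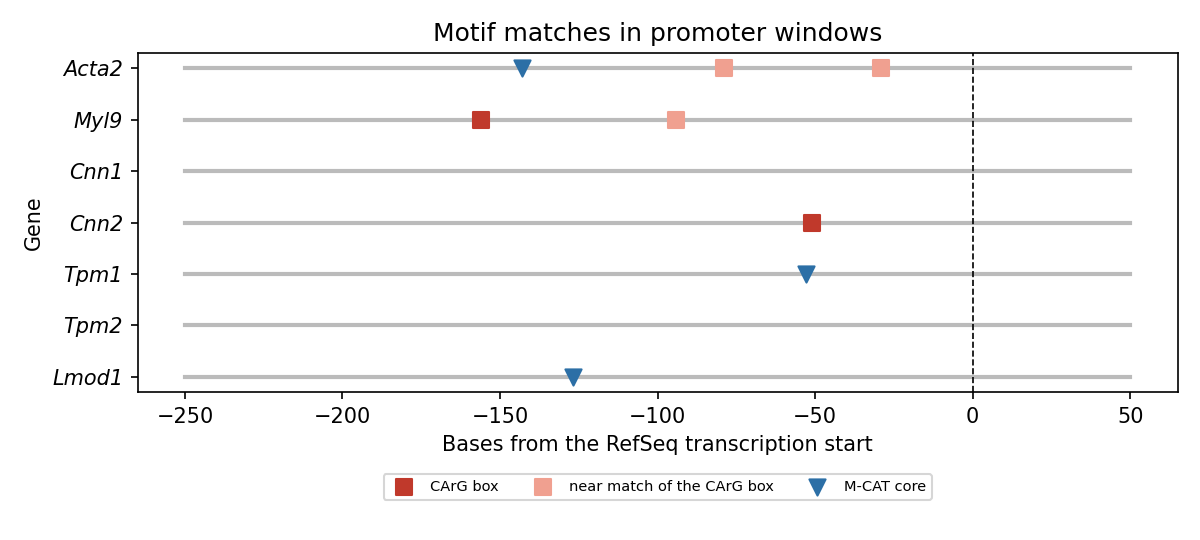
Motif matches in the promoter windows of 7 members, by distance in bases from the RefSeq start (dashed line at 0). Dark squares are CArG boxes, pale squares near matches with 1 G or C in the centre, and triangles the M-CAT core; Acta2 has 2 near matches and Cnn1 and Tpm2 have no match.

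Counts summed to 57926327 and 68312367 in KPC replicates 1 and 2 and to 53232634 and 22302141 in WT replicates 1 and 2. Levels are given as CPM, counts scaled to library size with TMM factors, and 23046 rows had enough counts to be tested, all 10 members among them. The lowest member count was 2213, for Myh11 in WT replicate 2, with an exact 95% Poisson interval of 2122 to 2307 for counting error only. Counting error was therefore small beside the differences between libraries described here. Fibroblast collagen genes were high in every library: Col1a1 stood at 4802 and 5245 CPM in KPC and 4088 and 4716 CPM in WT. The proteoglycan gene Lum, another fibroblast marker, stood at 1.50 and 7.34 CPM in KPC and at 0.171 and 3.31 CPM in WT. Of 10 fibroblast markers, 2 were higher in both KPC libraries (Col1a1 and Thy1; 20.6% of all rows). Another 2, Pdgfrb and Vim, were lower in both (20.5% of all rows), and edgeR called 0 of the 10. Vim stood at 1731 and 1698 CPM in KPC and at 3695 and 2157 CPM in WT. Together the 10 members took 1.30% and 1.28% of all counts in the KPC libraries and 0.839% and 1.70% in the WT libraries.

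Levels of different genes were compared per kilobase of annotated exon (CPM per kb). The counts are those of the whole gene interval, and covered bases went beyond the exons in some members. Tpm1 had 18045 bases covered in KPC replicate 1, beside 4780 exon bases. How far this moves the ranking was not tested. Acta2 and Tagln led, with means over the 4 libraries of 2040 and 1481 CPM per kb. Acta2 was above Tagln in each library, although their ranges, 1491 to 2581 and 856 to 1983 CPM per kb, overlap. Tpm2 (644), Myl9 (555), Tpm1 (466) and Actg2 (431) followed, and their ranges overlap one another. Cnn1 (222, from 74.7 to 329) and Cnn2 (198, from 161 to 229) could not be ordered beyond the spread between libraries. Lmod1 (25.1) and Myh11 (19.1 CPM per kb), the members most restricted to mature smooth muscle, were lowest, again with ranges that overlap.

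The actin genes did not differ between the groups beyond the spread of the wild type libraries. Acta2 (chromosome 19, 34241090 to 34255336 in mm10, minus strand) stood at 4109 and 4214 CPM in the KPC libraries and at 3034 and 5253 CPM in the WT libraries. Both KPC values lie between the WT values, and the group means were 4161 ± 73.8 and 4143 ± 1569 CPM (SD, n = 2 each). Its log2 fold change, KPC over WT, was 0.0063 ± 0.30 (SE), with a 95% interval of -0.78 to 0.80 (edgeR quasi-likelihood test, adjusted p = 0.997). That interval spans folds from 0.581 to 1.74, so the p does not show equal levels. Actg2, the gamma actin of visceral smooth muscle (chromosome 6, 83512905 to 83536265, minus strand), stood at 645 and 616 CPM in KPC and 218 and 878 CPM in WT. The KPC libraries were again close to each other and inside the WT range, and the log2 fold change was 0.20 ± 0.65 (adjusted p = 0.958).

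**Figure D2:**
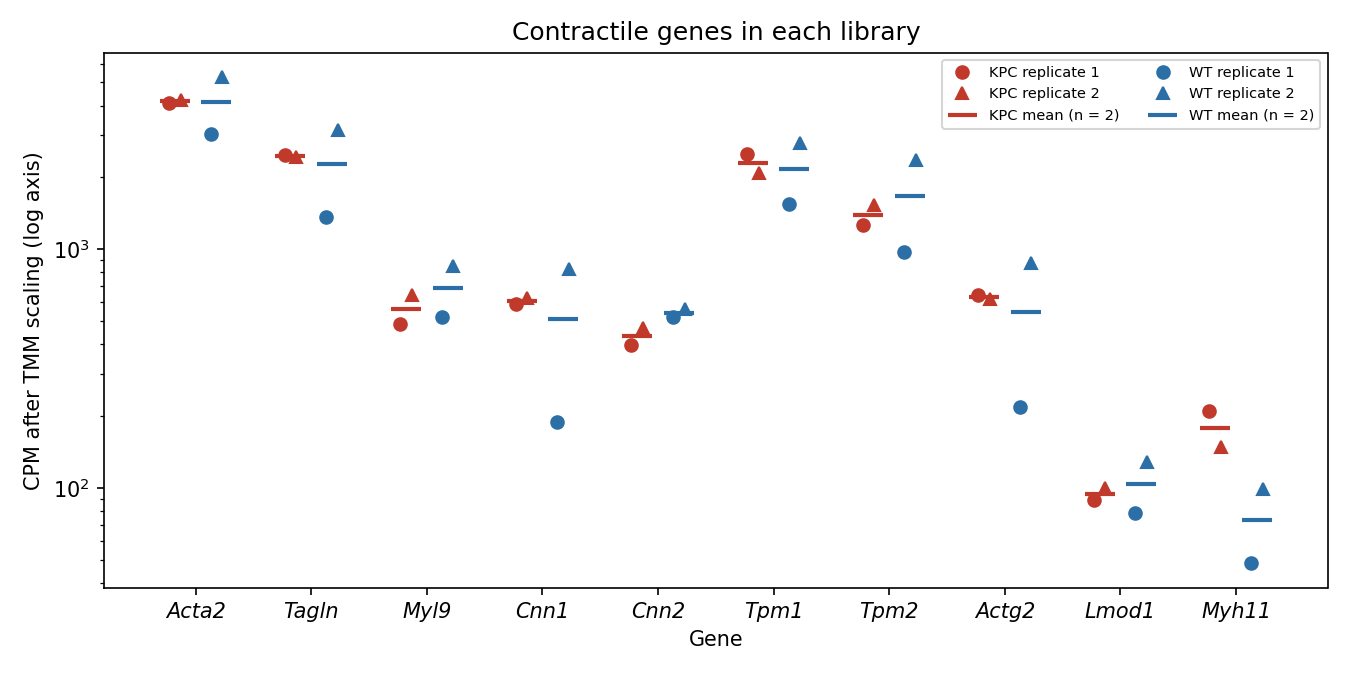
CPM after TMM scaling (log axis) of the 10 members, with KPC libraries in red left of WT libraries in blue. Points are single libraries (circle replicate 1, triangle replicate 2) and short lines group means (n = 2); the KPC points of Acta2, at 4109 and 4214 CPM, lie between the WT points at 3034 and 5253 CPM.

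The actin-binding genes Tagln and Cnn1 also had both KPC libraries between the wild type libraries, and Cnn2 did not. Tagln encodes transgelin, which bundles actin filaments (chromosome 9, 45929628 to 45936058, minus strand). Its level was 2483 and 2436 CPM in KPC and 1366 and 3163 CPM in WT, with a log2 fold change of 0.12 ± 0.42 (edgeR adjusted p = 0.963). Tagln overlaps an antisense gene, Gm48529, over 3627 bases, and 51.3% of its 37-base exon windows also lie in another annotated transcript; in the other 9 members this share was at most 0.926%. Cnn1 encodes calponin 1, which binds actin and restrains myosin ATPase activity in smooth muscle (chromosome 9, 22099281 to 22109630, plus strand). It stood at 591 and 627 CPM in KPC and 188 and 829 CPM in WT, the widest ratio between the wild type libraries among the members. For Cnn1 the log2 fold change was 0.26 ± 0.68 (adjusted p = 0.946), with a 95% interval from -1.52 to 2.04. Cnn2 encodes a calponin found also in non-muscle cells (chromosome 10, 79988584 to 79996062, plus strand). The level of Cnn2 was 396 and 468 CPM in KPC and 517 and 564 CPM in WT. Both KPC values were below both WT values, but the log2 fold change of -0.32 ± 0.18 did not pass the edgeR test (adjusted p = 0.658).

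Tropomyosins, which wind along actin filaments and gate the access of myosin, were also inside the wild type range in KPC. Tpm1 (chromosome 9, 67022590 to 67049406, minus strand) stood at 2498 and 2079 CPM in KPC and 1553 and 2785 CPM in WT. Tpm2 (chromosome 4, 43514711 to 43523765, minus strand) stood at 1265 and 1528 CPM in KPC and 972 and 2373 CPM in WT. Their log2 fold changes were 0.08 ± 0.33 and -0.26 ± 0.45, with edgeR adjusted p-values of 0.972 and 0.912. Lmod1, leiomodin 1, nucleates actin filaments in smooth muscle (chromosome 1, 135324807 to 135368065, plus strand). Lmod1 had 89.1 and 99.5 CPM in KPC and 78.6 and 129 CPM in WT, once more with both KPC libraries between the WT libraries, and a log2 fold change of -0.14 ± 0.28 (adjusted p = 0.930).

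Of the myosin genes, Myh11 was higher in both KPC libraries, and Myl9 overlapped between the groups. Myl9 encodes the regulatory light chain whose phosphorylation starts contraction (chromosome 2, 156775420 to 156781658, plus strand). It stood at 486 and 642 CPM in KPC and at 520 and 854 CPM in WT, with a log2 fold change of -0.29 ± 0.31 (edgeR adjusted p = 0.833). Myh11, the smooth muscle myosin heavy chain gene (chromosome 16, 14194527 to 14291408, minus strand), had 210 and 148 CPM in KPC and 48.3 and 99.0 CPM in WT. Its group means were 179 ± 44.2 and 73.6 ± 35.8 CPM (SD, n = 2 each). The log2 fold change of Myh11 was 1.28 ± 0.41, a fold of 2.43 with a 95% interval of 1.16 to 5.09. Myh11 did not pass the test over all rows (adjusted p = 0.537), and its unadjusted edgeR p was 0.0275.

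**Figure D3:**
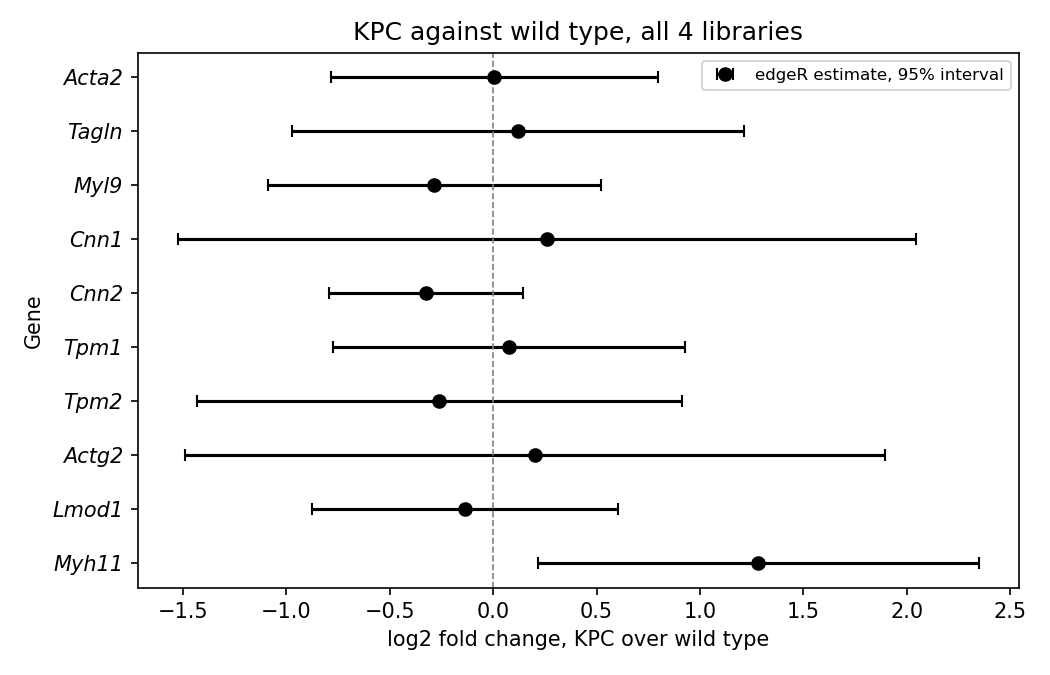
Log2 fold change of KPC over wild type for each member (x axis), from edgeR with all 4 libraries; bars are 95% intervals. Myh11, at 1.28, is the member whose interval lies above 0, and its adjusted p was 0.537.

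By edgeR's quasi-likelihood test 0 of the 10 members were called at an adjusted p of 0.05, as were 0 of all 23046 rows (0%). At an unadjusted p under 0.05, 1 member was higher (Myh11) and 0 lower, where 4.73% of all rows were higher and 3.94% lower. DESeq2 called 0 members and 2.72% of all rows, and limma voom called 0 members and 0% of rows. An exact permutation of 2 libraries against 2 has 6 arrangements, too few to reach 0.05, and was not used. Over the members, 6 log2 fold changes were positive, and the median was 0.042, beside -0.011 over all tested rows; 48.8% of all rows were positive. The groups did not overlap in 2 members, Myh11 and Cnn2, where 41.1% of all rows did not overlap. With both KPC libraries above both WT libraries stood 1 member (20.6% of all rows), and with both below, 1 member (20.5%).

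The members shared an order within the wild type group. All 10 were higher in WT replicate 2 than in WT replicate 1, as 48.4% of all tested rows were. In 7 of the 10, Acta2, Tagln, Cnn1, Tpm1, Tpm2, Actg2 and Lmod1, both KPC libraries lay above WT replicate 1 and below WT replicate 2, an order found in 9.43% of all rows. Both counts were the same under each of the other scalings tried (RLE, upper quartile and none). The members are genes of 1 program measured in the same libraries, so they are not independent counts of that order.

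The libraries of the wild type group differed more than those of the KPC group in 9 of the 10 members, where 61.1% of all tested rows did so. The median size of the log2 ratio between the libraries of a group was 0.20 for the members in KPC and 0.94 in WT. Over the 10452 rows with a mean of at least 10 CPM these medians were 0.20 in KPC and 0.27 in WT, so the members' KPC spread was near that background and their WT spread was above it. Cnn1 was 1.06-fold higher in KPC replicate 2 than in KPC replicate 1, against 4.40-fold between the same replicates of WT. Actg2 differed 0.954-fold in KPC and 4.03-fold in WT by the same ratio, and Tpm2 1.21-fold and 2.44-fold. A WT difference as large as that of Cnn1 occurred in 2.91% of rows of at least 10 CPM, and one as large as that of Acta2 in 11.7%. Cnn2 was the exception, with log2 ratios of 0.24 in KPC and 0.12 in WT. Among the members Myh11 had the widest KPC difference, with KPC replicate 2 at 0.51 below KPC replicate 1 on the log2 scale.

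**Figure D4:**
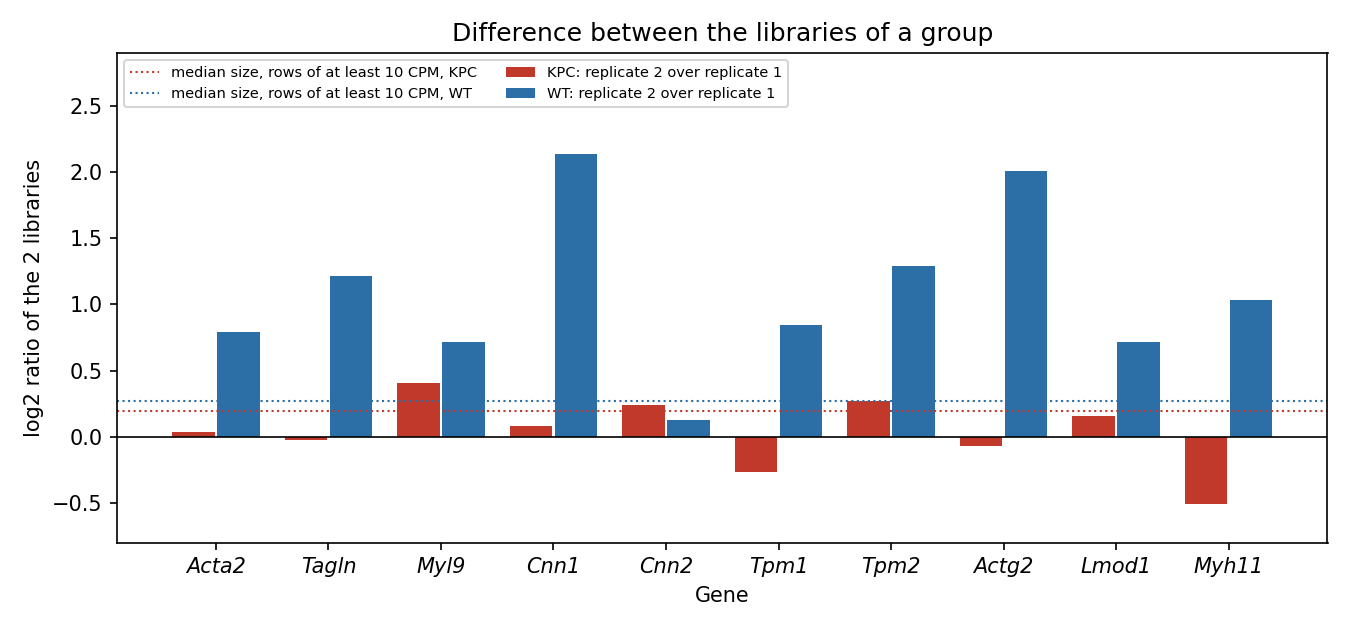
Log2 ratio of replicate 2 over replicate 1 within KPC (red) and within WT (blue) for each member; dotted lines give the median size of that ratio over rows of at least 10 CPM, 0.20 in KPC and 0.27 in WT. All 10 WT bars are above 0, up to 2.14 for Cnn1, and the KPC bars run from -0.51 to 0.40.

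The direction of most members therefore depended on which wild type library was kept. Without WT replicate 2, 9 of the 10 members had a positive log2 fold change, and Cnn1 (1.70, edgeR adjusted p = 0.0313) and Actg2 (1.54, adjusted p = 0.0397) were called higher in KPC. In that fit 1.79% of all rows were called higher. Without WT replicate 1, 1 member of 10, Myh11, had a positive value, and the median of the members was -0.41, with 0 members and 0.0209% of all rows called. Myh11 had a log2 fold change of 0.86 without WT replicate 1 and 1.89 without WT replicate 2 (adjusted p = 0.558 and 0.0530). Both fits leave 1 wild type library, which is assumed to vary as the KPC libraries do. Cnn2 and Myh11 kept their sign, negative and positive, with each of the 4 libraries left out in turn.

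**Figure D5:**
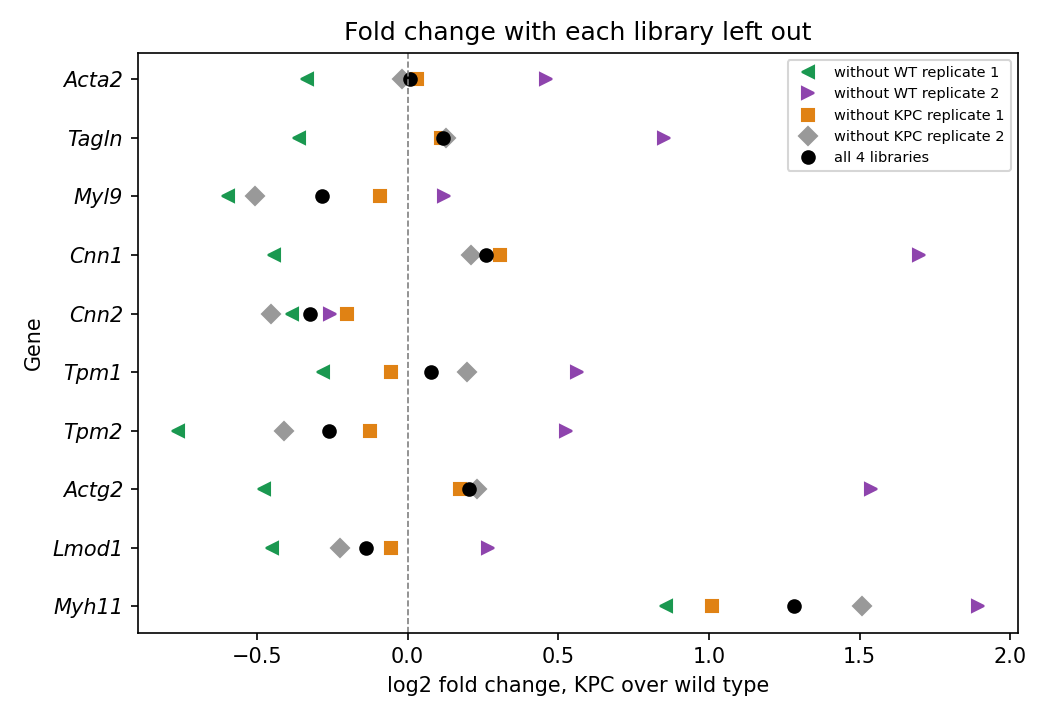
Log2 fold change of KPC over wild type for each member with all 4 libraries (black) and with each library left out. Without WT replicate 1 (green) the values run from -0.76 for Tpm2 to 0.86 for Myh11, and without WT replicate 2 (purple) from -0.26 for Cnn2 to 1.89 for Myh11.

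Ratios within a library, which need no scaling between libraries, separated WT replicate 1 from the other 3 for part of the set. Actg2 counts were 15.7% and 14.6% of Acta2 counts in KPC and 7.18% and 16.7% in WT. Cnn1 counts were 14.4% and 14.9% of Acta2 counts in KPC and 6.21% and 15.8% in WT. Lmod1 kept a narrow share of Acta2, at 2.17% and 2.36% in KPC and 2.59% and 2.45% in WT, and Myl9 stood at 11.8% and 15.2% in KPC and 17.1% and 16.3% in WT, both lower in both KPC libraries. Tagln counts were 60.4% and 57.8% of Acta2 counts in KPC and 45.0% and 60.2% in WT. Of these 6 members Myh11 was the 1 whose share of Acta2 was higher in both KPC libraries, at 5.12% and 3.50% in KPC and 1.59% and 1.88% in WT. These ratios are descriptions of 4 libraries, without a test. Ratios of Cnn2, Tpm1 and Tpm2 to Acta2 were not taken. The share of all rows whose ratio to Acta2 separates the groups was not counted. By CPM, 41.1% of all rows did not overlap between the groups, so such an order is common.

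Genes that control or accompany the set were not called by edgeR either. Of 16 genes measured for SRF, its cofactors and regulators of actin assembly, edgeR called 0 higher and 0 lower, 0 had an unadjusted p under 0.05, and the median log2 fold change was 0.094. Srf itself stood at 45.9 and 59.3 CPM in KPC and 46.2 and 66.6 CPM in WT, and the myocardin-related factor gene Mkl1 at 45.2 and 40.8 CPM in KPC and 38.7 and 54.8 CPM in WT. Myocd, the myocardin of smooth and cardiac muscle, was low throughout, at 0.850 and 1.02 CPM in KPC and 1.92 and 1.21 CPM in WT. Myocd had the smallest p of the list (adjusted p = 0.628 in edgeR), and among genes with a mean of at least 5 CPM it was the kinase gene Rock2, at 85.6 and 63.0 CPM in KPC and 134 and 84.8 CPM in WT (adjusted p = 0.650). The GTPase gene Rhob and the cofilin kinase gene Limk2 came next, with log2 fold changes of 0.39 ± 0.21 and 0.63 ± 0.36 (adjusted p = 0.655 and 0.667).

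Among 24 other contractile and stress fibre genes edgeR called 0 and DESeq2 called 1 (Fhl2), 0 were higher and 1 was lower at an unadjusted edgeR p under 0.05, and the median log2 fold change was 5.79e-05. The gene of smallest p was Fhl2, a LIM-domain cofactor found at focal adhesions, with 43.2 and 46.6 CPM in KPC and 86.4 and 75.2 CPM in WT (log2 fold change -0.85 ± 0.17, edgeR adjusted p = 0.362). Palld, which encodes the actin-scaffold protein palladin, stood at 59.6 and 54.8 CPM in KPC and 44.4 and 42.5 CPM in WT (adjusted p = 0.594). Ppp1r14a, an inhibitor of myosin phosphatase, stood at 2.58 and 12.4 CPM in KPC and 21.0 and 25.2 CPM in WT (adjusted p = 0.616). Of the 24 genes, 13 were higher in WT replicate 2 than in WT replicate 1, as were 48.4% of all tested rows. In 6 of the 24, both KPC libraries lay above WT replicate 1 and below WT replicate 2, beside 9.43% of all rows. These were Smtn, Synpo2, Csrp1, Pdlim7, Fermt2 and Ilk. Mylk and Csrp1, chosen after their values were seen, showed the members' low value in WT replicate 1. Others went the other way, such as Tln1, at 250 CPM in WT replicate 1 and 186 CPM in WT replicate 2. Mylk, the myosin light chain kinase that phosphorylates Myl9, stood at 130 and 160 CPM in KPC and 35.9 and 131 CPM in WT. Csrp1, a LIM protein of smooth muscle, stood at 709 and 707 CPM in KPC and 299 and 926 CPM in WT.

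Paralogs of the members, most of them non-muscle forms, had a smaller median difference between the wild type libraries than the members had. Of 19 paralogs 18 were tested, edgeR and DESeq2 each called 0, 0 had an unadjusted p under 0.05, and the median log2 fold change was -0.097. The median size of their log2 ratio between libraries was 0.18 in KPC and 0.43 in WT, beside 0.20 and 0.94 for the members. In WT replicate 2, 8 of the 18 were higher than in WT replicate 1. Both KPC libraries lay between the WT libraries in 8 of the 18, beside 20.0% of all rows. The muscle actin genes Acta1 and Actc1 went beyond the members' WT median, with log2 ratios of 1.25 and 1.14. So did Tagln3, at -1.70 and under 1 CPM in every library. The cytoplasmic actin gene Actg1 stood at 2557 and 2659 CPM in KPC and 2585 and 2977 CPM in WT, and the non-muscle myosin gene Myh9 at 725 and 585 CPM in KPC and 795 and 578 CPM in WT. The genes of smallest p were the light chain genes Myl12a, with 441 and 438 CPM in KPC and 623 and 545 CPM in WT, and Myl12b, with 217 and 217 CPM in KPC and 382 and 255 CPM in WT. Next came the transgelin relative Tagln2, at 650 and 493 CPM in KPC and 309 and 445 CPM in WT. The adjusted p was 0.593 for Myl12a, 0.611 for Myl12b and 0.611 for Tagln2 in edgeR. Reads of actin genes and their pseudogene copies may be counted in more than 1 row, so actin values are uncertain. Of the 37-base exon windows, 0.926% in Acta2 and 0.317% in Actg2 also lay in another gene's transcript. Such windows were not counted for the paralogs.

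TGF-beta is a known inducer of the myofibroblast set, and of 14 ligands, receptors and responsive genes edgeR called 0 and DESeq2 called 1 (Tgfbi). At an unadjusted edgeR p under 0.05, 2 were higher and 0 lower, and the median log2 fold change was 0.11. Tgfbi, a secreted TGF-beta response gene, stood at 17.7 and 60.6 CPM in KPC and 5.88 and 10.8 CPM in WT (log2 fold change 2.24 ± 0.68, edgeR adjusted p = 0.527). The receptor gene Tgfbr2 stood at 47.2 and 47.4 CPM in KPC and 32.6 and 35.9 CPM in WT (adjusted p = 0.548). The signal transducer gene Smad3 stood at 38.6 and 20.4 CPM in KPC and 18.03 and 22.3 CPM in WT (adjusted p = 0.703). By edgeR the share called was 0% in each list, as over all rows.

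Markers of other cells also differed between these libraries, although edgeR called 0 of them. Of all tested rows, 20.6% were higher and 20.5% lower in both KPC libraries. Of 8 endothelial markers, 7 were lower in both KPC libraries. The 8 summed to 19.8 and 28.8 CPM in KPC and 683 and 40.5 CPM in WT. Endocrine markers summed to 0.510 and 0.988 CPM in KPC and to 1.71 and 742 CPM in WT, with Ins1, Gcg and Sst at 0 in at least 1 library, and Schwann cell markers to 1.17 and 0.840 CPM in KPC and to 26.7 and 3.67 CPM in WT, with Foxd3 at 0 in at least 1. All 9 macrophage markers tested were higher in both KPC libraries, at a summed 824 and 1714 CPM in KPC and 68.3 and 224 CPM in WT, and 3 of 9 epithelial markers, at 1148 and 329 CPM in KPC and 30.4 and 390 CPM in WT. Of 5 mesothelial markers 3 were higher in both KPC libraries. The 5 summed to 155 and 62.6 CPM in KPC and 7.36 and 37.0 CPM in WT. Krt19 is in both the mesothelial and the epithelial list, at 64.7 and 34.9 CPM in KPC and 5.23 and 20.1 CPM in WT. The mesothelial markers Upk3b and Lrrn4 were under 1 CPM in every library. The part of other cells in the contractile values was not tested. A different share of contractile cells cannot be told apart from a different level per cell.

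Smooth muscle and pericyte markers outside the set went both ways, with 0 called by edgeR. Of 13 such genes 2 were higher and 4 lower in both KPC libraries (20.6% and 20.5% of all rows), the median log2 fold change was -0.16, and Kcnj8 was at 0 in at least 1 library. Their sum, 1647 and 787 CPM in KPC and 372 and 482 CPM in WT, was mostly Des. Des, the desmin filament gene of muscle and stellate cells, stood at 1507 and 620 CPM in KPC and 5.33 and 281 CPM in WT (log2 fold change 2.89, edgeR adjusted p = 0.670). Des shared with Myh11 the rank of the libraries, KPC replicate 1 highest and WT replicate 1 lowest. The epithelial markers Cdh1 and Krt19 and the mesothelial marker Msln had the same rank, so it is not particular to muscle genes. How many of all rows had this rank was not counted. The pericyte proteoglycan gene Cspg4 went the other way, at 14.3 and 15.1 CPM in KPC and 102 and 31.7 CPM in WT (adjusted p = 0.464). Of 10 striated muscle markers, all but Des and the actin genes Acta1 and Actc1 were under 1 CPM in every library; the summed level of the list was 1646 and 750 CPM in KPC and 96.8 and 497 CPM in WT, mostly from Des. Myog, a defining skeletal muscle regulator, had 0 counts in every library, which allows up to 3 counts in each. Acta1, the skeletal muscle actin gene, stood at 133 and 126 CPM in KPC and 88.4 and 211 CPM in WT, again with both KPC libraries inside the WT range.

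The genes most like the members were found among 7983 other named genes with a mean of at least 10 CPM, by the Euclidean distance between log2 CPM profiles centred over the 4 libraries. The mean profile of the members was 0.090 and 0.12 in KPC and -0.65 and 0.44 in WT, on the centred log2 scale. The 6 nearest genes were Mrpl52, Mrvi1, Cdc42ep5, Tceb1, Arrdc4 and Boc, with distances from 0.033 to 0.092, beside a median of 0.891 over all genes compared. Mrpl52 stood at 73.3 and 73.8 CPM in KPC and 43.9 and 94.7 CPM in WT, and Mrvi1 at 25.4 and 25.7 CPM in KPC and 15.9 and 32.4 CPM in WT. Of the members, Tagln lay nearest to their mean profile (distance 0.10) and Myh11 farthest (1.20). A profile over 4 libraries is a short one, and likeness in it says nothing of shared control.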

How the data were processed

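Single-end sequencing of poly-A RNA from cultured fibroblasts, in 4 libraries, is described in the labels. Tools listed in the submitters' processing notes are TopHat2 2.0.3, SAMtools 0.1.18, FastQC 0.10.1 and bedtools, with the mm10 build; roles, strand setting and treatment of reads with several matches are not given in the sources used here. The authors deposited 1 headerless table per library: interval, symbol, raw read count, covered bases (a coverage signal) and covered fraction. That the deposited values are raw counts was read from whole numbers with unequal totals. The deposited coverage signal and fraction of each interval covered only describe the rows. Where a row held a single count it usually spanned 37 bases (82.8% of such rows), which set the window length. Starts are printed as deposited.

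Counts were tested with edgeR 4.0.16 in R 4.3.3 (filterByExpr with a minimum count of 10, TMM factors from 0.988 to 1.02, two-sided quasi-likelihood test, Benjamini-Hochberg adjustment over 23046 rows). SE is the unshrunk log2 fold change over the root of F, and 95% intervals use it with 4.76 degrees of freedom. Log2 CPM used a prior count of 2. Exon length is the union of GENCODE M21 basic exons. The labels call the libraries biological replicates but identify no single animals or cultures. The p-values therefore reflect library-to-library spread, and its source cannot be told from the labels. Scripts were tested on simulated data.

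Members and lists were chosen with earlier results of these data known. Each member was named; of each pathway list the 3 genes of smallest p with a mean of at least 5 CPM were named, other genes after their values were seen. Alternatives were RLE, upper quartile or no factors, other count filters, DESeq2 1.42.0, limma voom (limma 3.58.1), a replicate block, summed rows of a symbol, and each library left out. Figures used matplotlib 3.10.9.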

Additional observations from a re-analysis of the deposited data

How the results depend on the processing

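With 2 libraries a group, edgeR called 0 rows with all 4 libraries, so a missing call says little about the members. Acta2 lay so close to 0 that its log2 fold change was -0.058 with upper quartile factors and -0.0045 when rows had to reach 1 CPM in 2 libraries. With a library left out, log2 fold changes ran from -0.33 to 0.46 for Acta2, -0.36 to 0.85 for Tagln, -0.60 to 0.12 for Myl9, -0.44 to 1.70 for Cnn1, -0.28 to 0.56 for Tpm1, -0.76 to 0.52 for Tpm2, -0.48 to 1.54 for Actg2 and -0.45 to 0.27 for Lmod1, in each case lowest without WT replicate 1 and highest without WT replicate 2. Cnn2 (-0.45 to -0.20) and Myh11 (0.86 to 1.89) kept their sign. Members called higher ranged from 0 to 2, all rows called higher from 0 to 429 and lower from 0 to 406 (5 without WT replicate 1), and the other contractile genes called from 0 to 1 (Mylk without WT replicate 2). DESeq2 called 333 rows higher and 294 lower, 1 of the other contractile genes (Fhl2) and 1 TGF-beta gene (Tgfbi); the cause was not tested. Replicate numbers are shared between the groups, but no label says they pair libraries: the deviations of same-numbered libraries correlated at 0.136 across rows, and with the replicate block 0 members and 0 rows were called and Myh11 had a log2 fold change of 1.35 (adjusted p = 0.551). Counts of members by the order of the libraries were the same under the other scalings, filters and summed rows, and the median replicate difference of the members ran from 0.17 to 0.21 in KPC and from 0.92 to 0.96 in WT (log2).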

Other observations

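WT replicate 1 had the most bases covered in 5 of the 10 members, near its share of 42.7% over all tested rows, and its total count was below those of both KPC libraries. Acta2 had 6890 and 7002 of its 14246 bases covered in KPC and 8194 and 4354 in WT, with counts of 241739 and 285789 in KPC and 159475 and 117453 in WT. Annotated Acta2 exons span 2035 bases, so part of the covered bases in each library lay outside them.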
